A study of Mus musculus with 12 samples.

Results

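The 43 genes described here mark the cells of brain blood vessels in RNA from mouse hippocampus. They were chosen by symbol, 31 as endothelial genes and 12 as mural genes, from the 54427 genes of a table of read counts, and all 43 were found. Bulk RNA-seq was done on 12 libraries, 3 in each of 4 groups named 5xFAD;Ulk1OV, 5xFAD, Ulk1OV and WT. The 5xFAD;Ulk1OV mice carried both the FAD gene and ULK1 overexpression, the 5xFAD mice the FAD gene alone, the Ulk1OV mice the overexpression alone, and the WT mice neither. 5xFAD is the name of a mouse line that carries a mutant human APP transgene, driven in neurons by the Thy1 promoter as generally described, and ULK1 is a kinase that starts autophagy. The sources used here do not give the construct and driver of Ulk1OV, the age or sex of the mice, or whether each library is 1 animal. The p-values therefore reflect only how these libraries vary, and part of that may be technical.

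The lining of a brain vessel is a sheet of endothelial cells that are sealed to each other by tight junctions and move nutrients through transporters, which together make the blood-brain barrier. Mural cells lie around it: pericytes on capillaries, which endothelial PDGF-B recruits through the receptor PDGFRB, and contractile smooth muscle cells on arteries and arterioles. Endothelial cells in turn depend on VEGF receptors and on the angiopoietin receptor TEK with its partner TIE1 for growth and stability. In bulk tissue, fewer cells of a type and less RNA per cell cannot be told apart.

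Totals per library were 16149992 to 18547132 counts. Levels are given in CPM, counts scaled to a common library size and corrected for library composition. App, the mouse counterpart of the APP transgene, stood at 2201 to 2667 CPM in 5 of the 6 libraries labelled with the FAD gene and at 1241 to 1493 CPM in the 6 without it. The library labelled 5xFAD;Ulk1OV replicate 3 stood at 1310 CPM, within the range of those without, and its Prnp level, 954 CPM, also lay in their range (900 to 1119 CPM) and not in that of the other 5 (2067 to 2510 CPM). Prnp is not part of that construct as described, yet it was 2.29-fold in 5xFAD against WT (log2 fold change 1.19 ± 0.23, adjusted p = 0.111), beside 1.79-fold for App (0.84 ± 0.18, adjusted p = 0.18). Whether the line is the one its label names was not tested. The library labelled 5xFAD;Ulk1OV replicate 3 goes against its label, so the counts of called members below are repeated with it left out. Ulk1 was at 97.1, 98.5 and 85.1 CPM in 5xFAD;Ulk1OV libraries against 86.3, 63.5 and 70.0 CPM in 5xFAD libraries, and at 102, 87.7 and 84.6 CPM in Ulk1OV libraries against 77.6, 81.8 and 74.1 CPM in WT libraries. Mean Ulk1 was 93.6 CPM in 5xFAD;Ulk1OV against 73.2 CPM in 5xFAD, and the libraries of these groups overlapped. It was 91.4 CPM in Ulk1OV against 77.8 CPM in WT, whose libraries did not overlap. No marker of neurons, astrocytes, oligodendrocytes or microglia was at 0 in any library, and none of the 31 endothelial members was.

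Of the 43 members, 42 passed the filter on low counts and were tested. The exception was Tagln, a smooth muscle gene with 0 to 7 counts per library, and 67.9% of its exon bases overlap those of other genes. The 5 windows below belong to members that changed in the comparison of Ulk1OV with WT, and show the sequence next to the start of genes that moved together. RefSeq (GRCm38.p6) gave a window for 29 of the 43 members. Each is the 250 bases before the listed start, 5′ to 3′ on the gene's strand, with capitals on matches to CAGGAAG, or CTTCCTG on the other strand, a core bound by ETS-family factors such as the member Erg. Egfl7 (chr2:26580833-26581082, plus strand, the first of 3 listed starts) had 2 matches, 90 and 49 bases before the start. Itm2a (chrX:107403361-107403610, minus strand) had 1, 243 bases before the start. Tek (chr4:94739039-94739288, plus strand), Tie1 (chr4:118489850-118490099, minus strand) and Vtn (chr11:78498870-78499119, plus strand) had none.
Egfl7: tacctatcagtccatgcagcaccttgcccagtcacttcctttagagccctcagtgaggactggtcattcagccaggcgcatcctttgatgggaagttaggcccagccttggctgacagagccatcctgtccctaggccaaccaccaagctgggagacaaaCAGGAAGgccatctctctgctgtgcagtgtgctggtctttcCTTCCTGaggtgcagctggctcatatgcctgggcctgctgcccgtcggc
Itm2a: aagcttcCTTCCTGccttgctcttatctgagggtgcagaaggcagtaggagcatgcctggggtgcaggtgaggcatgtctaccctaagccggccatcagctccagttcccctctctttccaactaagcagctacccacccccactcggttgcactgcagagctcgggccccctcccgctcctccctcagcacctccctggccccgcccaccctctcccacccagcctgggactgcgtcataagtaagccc
Tek: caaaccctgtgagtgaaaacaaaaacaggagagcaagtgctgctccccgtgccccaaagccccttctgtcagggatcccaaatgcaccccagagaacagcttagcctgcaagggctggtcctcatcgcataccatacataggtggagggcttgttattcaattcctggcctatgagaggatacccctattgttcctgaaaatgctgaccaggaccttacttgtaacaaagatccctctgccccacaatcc
Tie1: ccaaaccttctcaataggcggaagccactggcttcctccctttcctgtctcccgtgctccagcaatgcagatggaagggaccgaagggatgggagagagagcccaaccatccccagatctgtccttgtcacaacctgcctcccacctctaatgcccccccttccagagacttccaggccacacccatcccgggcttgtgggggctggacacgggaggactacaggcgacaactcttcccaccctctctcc
Vtn: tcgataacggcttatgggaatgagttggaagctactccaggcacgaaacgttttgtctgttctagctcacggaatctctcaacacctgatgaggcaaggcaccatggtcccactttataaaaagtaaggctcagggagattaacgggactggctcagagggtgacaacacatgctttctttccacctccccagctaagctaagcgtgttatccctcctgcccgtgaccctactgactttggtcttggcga
The motif lay in 4 of the 29 members' windows (13.8%), all 4 of them among the 21 endothelial ones (19.0%), and in 2843 of 27025 genes' windows in the table (10.5%). A match is a description of the letters and says nothing about binding.

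Per kilobase of exon, the mean level in WT libraries spanned from 248 CPM for Bsg, the widely expressed transporter chaperone basigin, to 0.103 CPM for Tagln. Next below Bsg came Vtn at 36.9 CPM, Slc2a1 at 21.9 CPM, Pltp at 21.4 CPM and Itm2a at 20.9 CPM per kilobase. Summed over the 31 endothelial genes, levels were 830.6 to 881.1 CPM in 5xFAD;Ulk1OV libraries, 689.4 to 738.7 CPM in 5xFAD libraries, 791 to 857.5 CPM in Ulk1OV libraries and 790.4 to 1016.3 CPM in WT libraries. Every 5xFAD library lay below every library of the other groups on this sum, of which Bsg made up the largest part. The 12 mural genes summed to 133.8 to 209.1 CPM in 5xFAD;Ulk1OV libraries, 96 to 158.2 CPM in 5xFAD libraries, 105.9 to 117.9 CPM in Ulk1OV libraries and 154.2 to 209.1 CPM in WT libraries, so that Ulk1OV and WT did not overlap.

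**Figure D1:**
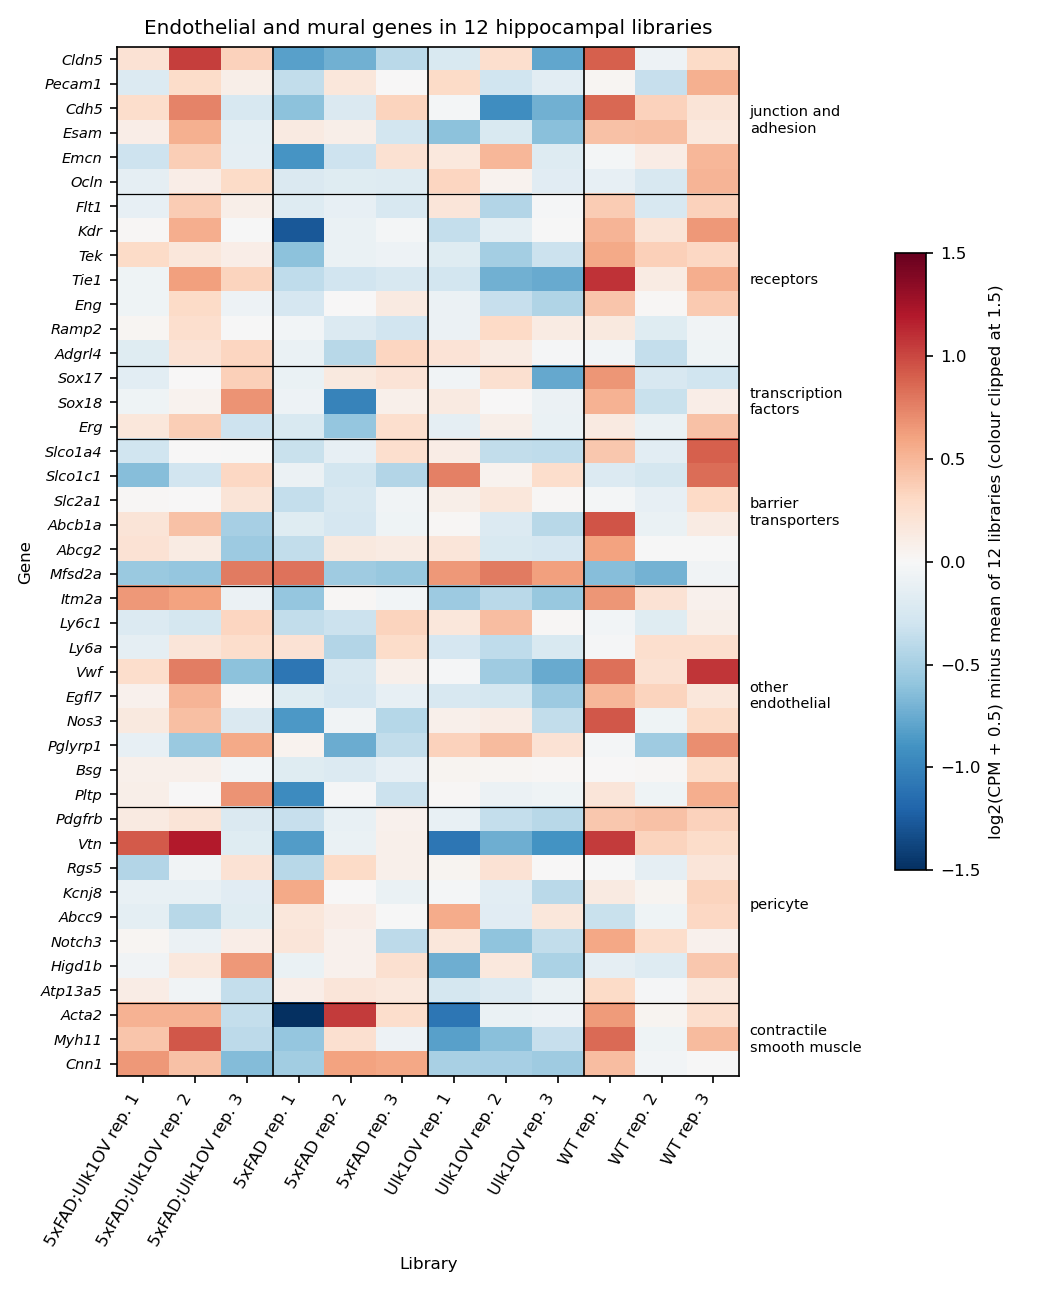
Each row is a member and each column a library, in the order 5xFAD;Ulk1OV, 5xFAD, Ulk1OV and WT, and colour gives the log2 level relative to that member's mean. 5xFAD;Ulk1OV replicate 2 has 27 and WT replicate 3 has 26 of 31 endothelial members above their mean, against 4 in 5xFAD replicate 1.

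With ULK1 overexpression alone, 5 endothelial members (Itm2a, Tek, Tie1, Esam and Egfl7) and 2 mural members (Pdgfrb and Vtn) were lower in Ulk1OV than in WT, and no member rose. That is 7 of 42, against 3.04% of all 17227 genes tested that fell and 5.17% that changed in either direction (edgeR quasi-likelihood test, Benjamini-Hochberg adjusted p under 0.05). Among 13 fibroblast markers 9 fell in the same comparison, with a median log2 fold change of -1.515, and their part in the result was not tested. The median log2 fold change was -0.327 over the endothelial members, with 24 of 31 below 0 (49.6% of all genes), and -0.606 over the 11 mural members tested, with 9 below 0, beside 0.003 over all genes. Without WT replicate 1 the endothelial median was -0.209. In 10 endothelial and 7 mural members every Ulk1OV library lay below every WT library, against 14.5% of all genes. DESeq2 called 8 endothelial and 3 mural members, and 11.3% of all genes. Without Ulk1OV replicate 3, WT replicate 1 or WT replicate 2 no member was called, as no gene was (0.0% of all genes in each fit). The library labelled 5xFAD;Ulk1OV replicate 3 is in neither group here, but it enters the filter, the scaling and the estimate of spread. Dropping it gave 7 endothelial and 3 mural calls, with 6.72% of all genes called in that fit. With each of the 12 libraries left out in turn, Egfl7 and Pdgfrb were called in 9 fits, Tie1 and Vtn in 8, Esam in 6, Itm2a in 5 and Tek in 3.

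Between the groups with ULK1 overexpression, Itm2a, Egfl7 and Vtn rose in 5xFAD;Ulk1OV against Ulk1OV and no member fell. These 3 of 42 compare with 3.67% of all genes that rose and 6.1% that changed. Medians were 0.243 for endothelial and 0.35 for mural members, beside -0.013 over all genes, and the endothelial median was 0.063 without 5xFAD;Ulk1OV replicate 2. No member was called without 5xFAD;Ulk1OV replicate 1 or 2 or Ulk1OV replicate 3, as no gene was (0.0% of all genes in each fit). Without Ulk1OV replicate 1 no member was called either, with 2.19% of all genes called in that fit. Dropping the library labelled 5xFAD;Ulk1OV replicate 3 gave 4 endothelial and 2 mural calls, with 8.97% of all genes called in that fit. With each library left out in turn, Itm2a and Vtn were called in 8 of 12 fits and Egfl7 in 3. DESeq2 called 4 endothelial and 2 mural members, and 12.3% of all genes.

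In 5xFAD against WT no member was called, as no gene was (0.0% of all genes by edgeR, with 2139 genes, or 12.4%, at an unadjusted p under 0.05, and 136 of 16277, or 0.836%, called by DESeq2). Of the endothelial members, 29 of 31 had a log2 fold change below 0 (49.5% of all genes), with a median of -0.489 beside 0.003 over all genes, and 11 had an unadjusted p under 0.05, all lower, against 6.41% of all genes. Mural members had a median of -0.007. With the library labelled 5xFAD;Ulk1OV replicate 3 and WT replicate 3 left out together, a pair chosen after seeing the data, the endothelial median was -0.303. Without WT replicate 3 alone it was -0.294. Leaving out the library labelled 5xFAD;Ulk1OV replicate 3 alone, which is in neither group, again gave no called member, with 0.017% of all genes called.

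In 5xFAD;Ulk1OV against 5xFAD no member was called either, against 0.0464% of all genes. Here 27 of 31 endothelial log2 fold changes were above 0 (49.8% of all genes), with a median of 0.307 beside -0.001 over all genes, and 8 endothelial members and 1 mural member had an unadjusted p under 0.05, all higher, against 8.36% of all genes. DESeq2 called 2 endothelial members, and 5.35% of all genes. The median over mural members was 0.028, and turned to -0.086 without 5xFAD replicate 1 and to -0.084 without 5xFAD;Ulk1OV replicate 2. Without the library labelled 5xFAD;Ulk1OV replicate 3 no member was called, 0.0682% of all genes were, and the endothelial median was 0.349, whereas without 5xFAD;Ulk1OV replicate 2 that median was 0.189. The 4 comparisons share groups, so their values are given side by side and not as independent evidence.

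The interaction asks whether the effect of Ulk1OV differed between mice with and without the FAD gene, as the difference of the 2 Ulk1OV effects. It was positive and called for 8 endothelial members (Cldn5, Itm2a, Cdh5, Tek, Tie1, Esam, Vwf and Egfl7) and 3 mural members (Pdgfrb, Vtn and Myh11), and negative and called for none. These 11 of 42 stand beside 6.8% of all genes with a positive call and 12.8% with any. The medians were 0.621 for endothelial and 0.734 for mural members, beside -0.009 over all genes. Leaving out 1 library at a time left 5 to 10 endothelial calls (5 without 5xFAD;Ulk1OV replicate 1 or 2, Ulk1OV replicate 3 or WT replicate 1) and 1 to 3 mural calls (1 without 5xFAD;Ulk1OV replicate 2 or Ulk1OV replicate 3), while 974 to 2596 genes in all were called in these fits. Without the library labelled 5xFAD;Ulk1OV replicate 3 the calls were 10 endothelial and 3 mural, with 14.4% of all genes. Cldn5, Itm2a, Tek, Tie1, Egfl7 and Vtn were called in all 12 of these fits, Pdgfrb in 10, Vwf in 5, Cdh5 and Esam in 4 and Myh11 in 2.

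**Figure D2:**
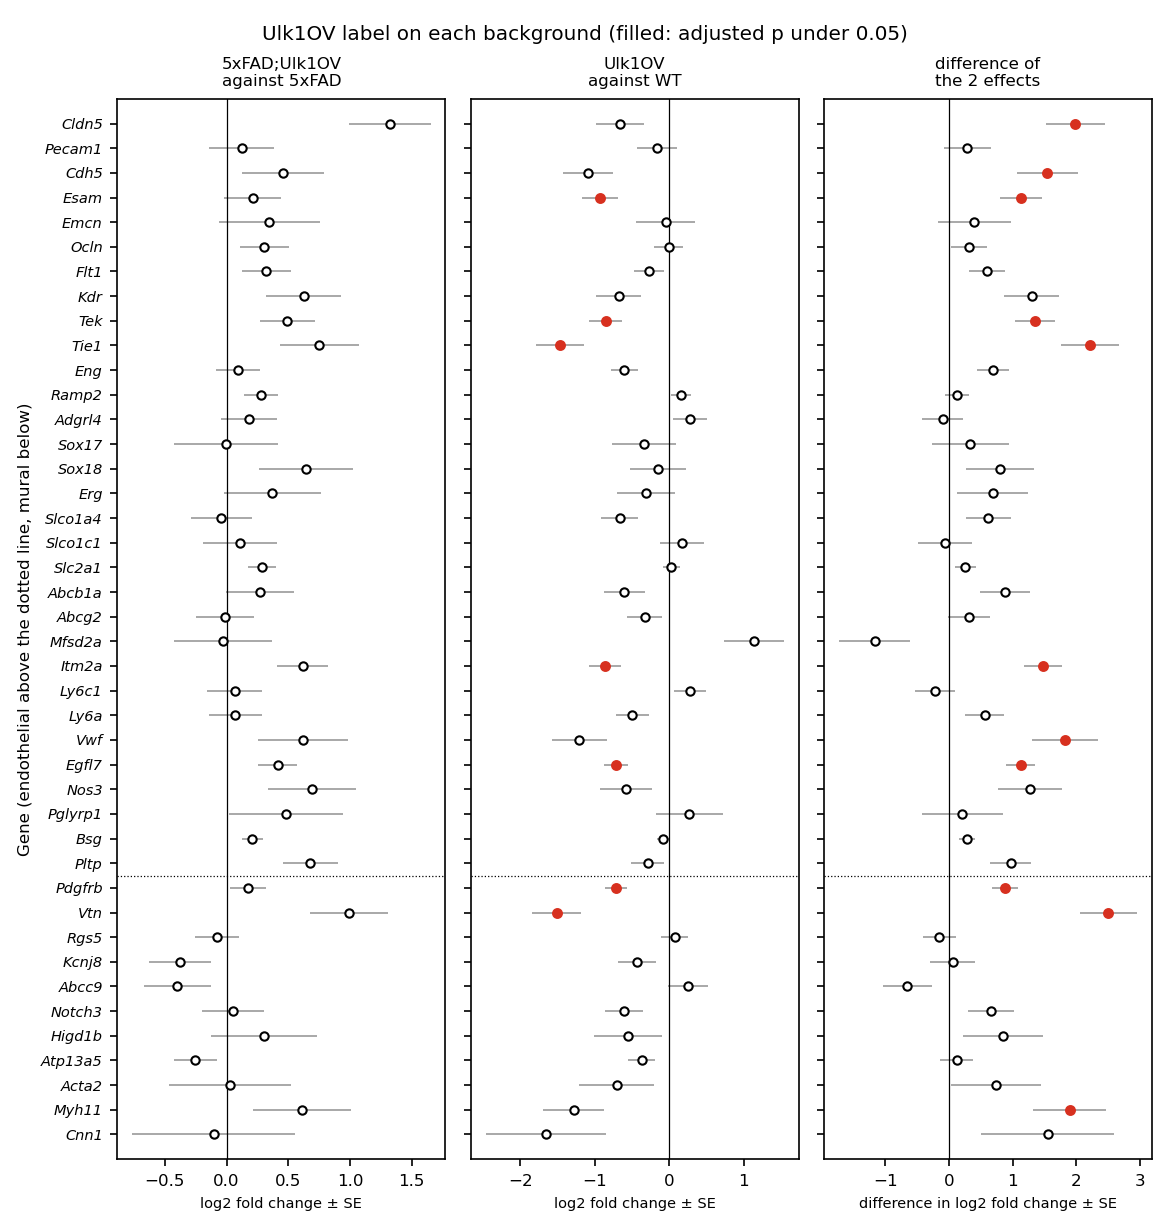
Points are log2 fold changes of the 42 tested members with bars of 1 SE, in 5xFAD;Ulk1OV against 5xFAD (left), Ulk1OV against WT (middle) and as the difference of these 2 effects (right). Filled points passed the adjusted p threshold: none on the left, 7 below 0 in the middle and 11 above 0 on the right, where Vtn is highest at 2.5.

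Junction and adhesion genes hold the endothelial sheet together (gene coordinates here are mm10). Cldn5 (chr16:18776847-18778262), the main claudin of the blood-brain barrier, stood at 7.21, 13.2 and 7.96 CPM in 5xFAD;Ulk1OV libraries, 3.28, 3.54 and 4.52 CPM in 5xFAD libraries, 5.18, 7.43 and 3.38 CPM in Ulk1OV libraries and 11.9, 5.83 and 7.60 CPM in WT libraries. Cldn5 thus averaged 9.46 ± 3.27 CPM in 5xFAD;Ulk1OV, 3.78 ± 0.655 CPM in 5xFAD, 5.33 ± 2.03 CPM in Ulk1OV and 8.43 ± 3.11 CPM in WT libraries (SD, n = 3 each, as for all means here). All 3 5xFAD libraries were below all 3 WT and all 3 5xFAD;Ulk1OV libraries, whereas Ulk1OV and WT overlapped. The log2 fold change was -1.15 ± 0.33 (SE) in 5xFAD against WT (adjusted p = 0.248) and 1.32 ± 0.33 in 5xFAD;Ulk1OV against 5xFAD (adjusted p = 0.0963). The interaction was 1.99 ± 0.46 (adjusted p = 0.0167).

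Cdh5 (chr8:104101625-104144511), the VE-cadherin of adherens junctions, was at 7.38, 10.5 and 5.07 CPM in 5xFAD;Ulk1OV libraries, 3.79, 5.17 and 7.77 CPM in 5xFAD libraries, 5.93, 2.95 and 3.49 CPM in Ulk1OV libraries and 11.4, 7.84 and 7.03 CPM in WT libraries. The Cdh5 means were 7.65 ± 2.73, 5.58 ± 2.02, 4.12 ± 1.59 and 8.76 ± 2.32 CPM in the same order of groups. Every Ulk1OV library was below every WT library, and the other pairs of groups overlapped. The interaction, 1.55 ± 0.48, passed narrowly (adjusted p = 0.049). Esam (chr9:37528078-37538319), an adhesion molecule at tight junctions, measured 4.92, 6.82 and 4.06 CPM in 5xFAD;Ulk1OV libraries, 5.09, 4.89 and 3.69 CPM in 5xFAD libraries, 2.81, 3.83 and 2.78 CPM in Ulk1OV libraries and 6.35, 6.43 and 5.16 CPM in WT libraries. Esam averaged 5.27 ± 1.41, 4.56 ± 0.753, 3.14 ± 0.601 and 5.98 ± 0.71 CPM in the same order of groups. The Ulk1OV libraries lay below all WT and all 5xFAD;Ulk1OV libraries. Esam fell in Ulk1OV against WT by 0.93 ± 0.24 on the log2 scale (adjusted p = 0.0412), with an interaction of 1.14 ± 0.33 (adjusted p = 0.0386).

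The other 3 junction and adhesion members were not called in any comparison. Pecam1, an adhesion molecule at endothelial contacts, averaged 5.82 ± 1.04 CPM in 5xFAD;Ulk1OV, 5.35 ± 1.07 CPM in 5xFAD, 5.4 ± 1.29 CPM in Ulk1OV and 6.04 ± 2.02 CPM in WT libraries. Ocln, the tight junction protein occludin, averaged 12.5 ± 1.90, 10.1 ± 0.14, 12.4 ± 2.26 and 12.5 ± 3.81 CPM in 5xFAD;Ulk1OV, 5xFAD, Ulk1OV and WT libraries, and Emcn, a sialomucin of veins and capillaries, 1.58 ± 0.532, 1.24 ± 0.656, 1.85 ± 0.556 and 1.90 ± 0.476 CPM in that order of groups. All 6 junction and adhesion members had a log2 fold change below 0 in Ulk1OV against WT (49.6% of all genes). All 6 also had an interaction above 0 (8471 of 17227 genes). In Ulk1OV against WT the log2 fold changes of Pecam1, Ocln and Emcn were smaller in size than their SE.

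Among receptors, the angiopoietin receptor Tek and its partner Tie1 were both called. Tek was at 4.25, 3.89 and 3.67 CPM in 5xFAD;Ulk1OV libraries, 2.04, 3.14 and 3.20 CPM in 5xFAD libraries, 2.93, 2.24 and 2.62 CPM in Ulk1OV libraries and 5.29, 4.47 and 4.31 CPM in WT libraries. Tek averaged 3.94 ± 0.29, 2.79 ± 0.656, 2.6 ± 0.346 and 4.69 ± 0.526 CPM in the same order of groups. Its 6 libraries of the 5xFAD and Ulk1OV groups all lay below the 6 of 5xFAD;Ulk1OV and WT. It fell in Ulk1OV against WT by 0.85 ± 0.22 on the log2 scale (adjusted p = 0.0449), a call kept in 5 of 18 alternatives with adjusted p from 0.0142 to 0.162. The Tek interaction was 1.35 ± 0.31 (adjusted p = 0.0167). Tie1 was at 2.24, 3.89 and 3.12 CPM in 5xFAD;Ulk1OV libraries, 1.70, 1.85 and 1.93 CPM in 5xFAD libraries, 1.87, 1.24 and 1.20 CPM in Ulk1OV libraries and 5.58, 2.61 and 3.69 CPM in WT libraries, with the same separation. Tie1 averaged 3.08 ± 0.828, 1.83 ± 0.119, 1.44 ± 0.378 and 3.96 ± 1.5 CPM in the same order of groups. Tie1 fell in Ulk1OV against WT by 1.46 ± 0.32 on the log2 scale (adjusted p = 0.0299). Its log2 fold change was 1.1 ± 0.33 in 5xFAD;Ulk1OV against Ulk1OV (adjusted p = 0.0586) and -1.11 ± 0.32 in 5xFAD against WT (adjusted p = 0.248), and its interaction was 2.21 ± 0.45 (adjusted p = 0.0102). Tie1 had 21 to 95 counts per library.

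The other 5 receptors were not called. Kdr, the main VEGF receptor, averaged 6.71 ± 1.62 CPM in 5xFAD;Ulk1OV, 4.35 ± 1.96 CPM in 5xFAD, 5.07 ± 0.678 CPM in Ulk1OV and 8.12 ± 1.35 CPM in WT libraries, with an interaction of 1.30 ± 0.43 (adjusted p = 0.062). Flt1, a second VEGF receptor, averaged 15.6 ± 2.82, 12.5 ± 0.506, 13.5 ± 2.98 and 16.3 ± 3.80 CPM in 5xFAD;Ulk1OV, 5xFAD, Ulk1OV and WT libraries. In the same order, Eng, a co-receptor for TGF-beta and BMP ligands, averaged 8.74 ± 1.38, 8.19 ± 1.14, 6.78 ± 0.968 and 10.3 ± 1.56 CPM. Ramp2, a partner of the adrenomedullin receptor, averaged 20.2 ± 2.07, 16.7 ± 1.5, 20.6 ± 2.82 and 18.5 ± 2.15 CPM, and 33.4% of its exon bases overlap another gene. Adgrl4, an adhesion G protein-coupled receptor, averaged 5.41 ± 1.04, 4.76 ± 1.36, 5.32 ± 0.448 and 4.37 ± 0.581 CPM.

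The 3 transcription factors were near the lower end of the endothelial levels and not called. Sox17, an arterial factor, averaged 1.48 ± 0.369 CPM in 5xFAD;Ulk1OV, 1.49 ± 0.217 CPM in 5xFAD, 1.21 ± 0.563 CPM in Ulk1OV and 1.53 ± 0.817 CPM in WT libraries. Sox18 averaged 2.71 ± 0.934, 1.73 ± 0.782, 2.21 ± 0.210 and 2.46 ± 0.860 CPM in 5xFAD;Ulk1OV, 5xFAD, Ulk1OV and WT libraries, and Erg, an ETS factor of endothelial identity, 1.20 ± 0.390, 0.929 ± 0.414, 1.03 ± 0.130 and 1.29 ± 0.335 CPM in the same order.

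None of the 6 barrier transporters was called in any comparison. Of all genes, 0.0% (5xFAD against WT) to 12.8% (interaction) were called, so 0 of 6 is not far from that share. In Ulk1OV against WT 3 were above 0 and 3 below, and 49.6% of all genes were below. At an unadjusted p under 0.05 (edgeR), 1 was higher and 2 lower there, beside 1983 and 2169 of all 17227 genes. Mfsd2a, which carries omega-3 lysophospholipids across the barrier and limits transcytosis, was singled out after its values were seen. It stood at 16.9, 16.6 and 43.5 CPM in 5xFAD;Ulk1OV libraries, 44.6, 17.2 and 16.8 CPM in 5xFAD libraries, 39.6, 43.4 and 38.8 CPM in Ulk1OV libraries and 15.9, 15.2 and 24.2 CPM in WT libraries. Mfsd2a averaged 25.7 ± 15.4, 26.2 ± 16, 40.6 ± 2.48 and 18.4 ± 4.98 CPM in the same order of groups. All 3 Ulk1OV libraries were high, together with 5xFAD replicate 1 and the library labelled 5xFAD;Ulk1OV replicate 3, and the other 7 were low. Its log2 fold change in Ulk1OV against WT was 1.14 ± 0.40 (adjusted p = 0.1), opposite in sign to that of the 7 members that fell.

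Slc2a1, the glucose transporter GLUT1, averaged 77.4 ± 5.98 CPM in 5xFAD;Ulk1OV, 63.4 ± 6.98 CPM in 5xFAD, 78.3 ± 4.33 CPM in Ulk1OV and 76.8 ± 12.1 CPM in WT libraries. Abcb1a, the efflux pump P-glycoprotein, averaged 12.5 ± 4.03, 10.3 ± 0.716, 10.1 ± 1.60 and 15.4 ± 6.46 CPM in 5xFAD;Ulk1OV, 5xFAD, Ulk1OV and WT libraries, and Abcg2, another efflux pump, 13.9 ± 3.76, 14 ± 2.72, 13.3 ± 2.44 and 16.7 ± 4.41 CPM. The organic anion transporter Slco1a4 averaged 10.1 ± 1.24, 10.4 ± 2.29, 9.45 ± 2.03 and 14.9 ± 5.48 CPM in that order. Slco1c1, a thyroid hormone transporter, was highest in Ulk1OV replicate 1 (64.7 CPM) and WT replicate 3 (68.6 CPM), the 2 libraries whose choroid plexus markers summed to 5946 and 8481 CPM against 207.5 to 609.3 CPM in the other 10. The choroid plexus also makes Slco1c1, and its part in that value was not tested. Slco1c1 averaged 34.1 ± 11.8 CPM in 5xFAD;Ulk1OV, 31.6 ± 3.92 CPM in 5xFAD, 49.9 ± 13.1 CPM in Ulk1OV and 44.3 ± 21.0 CPM in WT libraries.

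**Figure D3:**
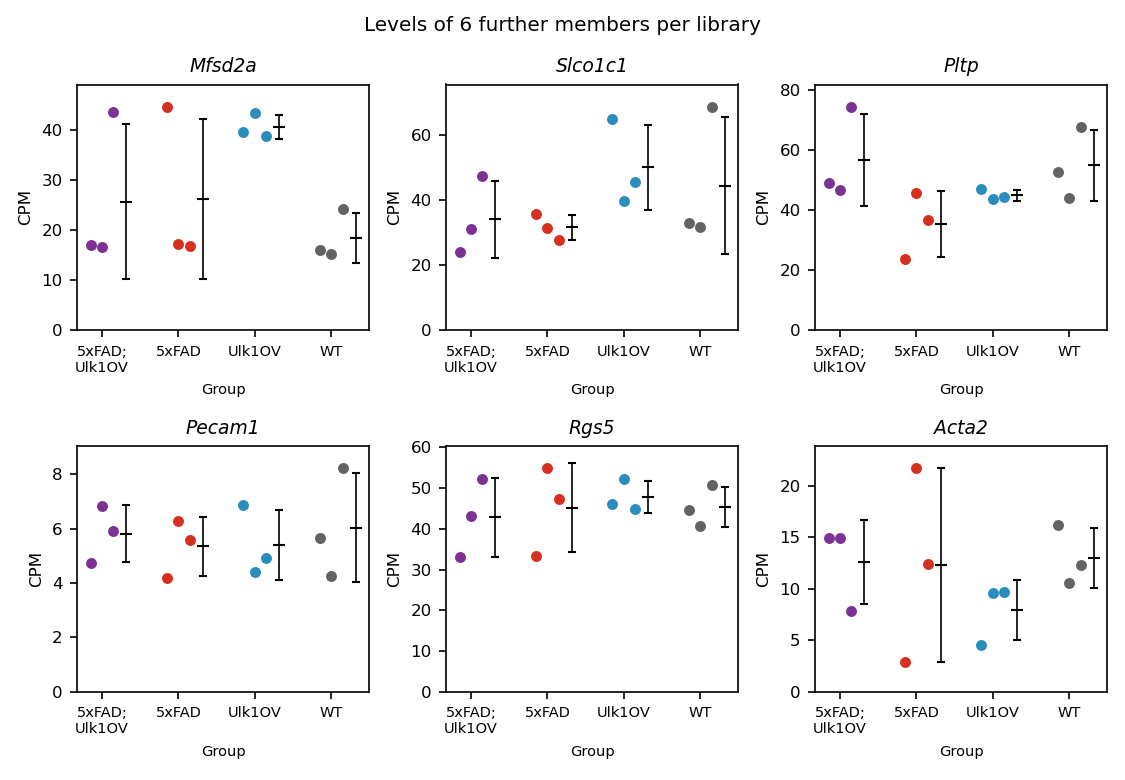
Each point is a library's level in CPM, for members that were not called or whose libraries divide within groups, with bars for the mean and SD of 3 libraries in 5xFAD;Ulk1OV, 5xFAD, Ulk1OV and WT. Mfsd2a is at 38.8 to 43.4 CPM in the Ulk1OV libraries and at 15.2 to 24.2 CPM in the WT libraries.

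The remaining endothelial members are secreted or surface proteins, apart from the enzyme encoded by Nos3. Itm2a, a membrane protein enriched in brain endothelium, was at 45.5, 44.0 and 27.1 CPM in 5xFAD;Ulk1OV libraries, 19.0, 29.2 and 27.9 CPM in 5xFAD libraries, 19.5, 21.5 and 19.2 CPM in Ulk1OV libraries and 45.9, 33.4 and 30.1 CPM in WT libraries. Itm2a averaged 38.9 ± 10.2, 25.4 ± 5.55, 20.1 ± 1.27 and 36.5 ± 8.33 CPM in the same order of groups. The Ulk1OV libraries lay below all 5xFAD;Ulk1OV and all WT libraries. Itm2a fell in Ulk1OV against WT by 0.86 ± 0.21 on the log2 scale (adjusted p = 0.0395) and rose in 5xFAD;Ulk1OV against Ulk1OV by 0.95 ± 0.21 (adjusted p = 0.0251). Its interaction was 1.48 ± 0.30 (adjusted p = 0.00994), and its log2 fold change in 5xFAD;Ulk1OV against 5xFAD was 0.62 ± 0.21 (adjusted p = 0.167).

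Egfl7, a secreted factor of the vessel wall that hosts the endothelial microRNA miR-126, stood at 12.7, 17.5 and 12.2 CPM in 5xFAD;Ulk1OV libraries, 10.7, 10.1 and 11.1 CPM in 5xFAD libraries, 10.2, 10.03 and 8.17 CPM in Ulk1OV libraries and 17.4, 15.5 and 13.7 CPM in WT libraries. Egfl7 averaged 14.2 ± 2.89, 10.6 ± 0.49, 9.48 ± 1.14 and 15.5 ± 1.86 CPM in the same order of groups. All 5xFAD and Ulk1OV libraries were below all 5xFAD;Ulk1OV and WT libraries. The log2 fold changes were -0.71 ± 0.16 in Ulk1OV against WT (adjusted p = 0.0299), 0.58 ± 0.16 in 5xFAD;Ulk1OV against Ulk1OV (adjusted p = 0.0482) and -0.55 ± 0.16 in 5xFAD against WT (adjusted p = 0.248), with an interaction of 1.13 ± 0.22 (adjusted p = 0.00926). In Egfl7, 11.2% of exon bases overlap other genes and no source used here says whether counting used strand.

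Vwf (chr6:125546774-125686679), the clotting factor that endothelium stores, was at 12.2, 17.5 and 6.40 CPM in 5xFAD;Ulk1OV libraries, 4.47, 8.42 and 10.6 CPM in 5xFAD libraries, 9.92, 6.78 and 5.72 CPM in Ulk1OV libraries and 18.2, 11.9 and 21.6 CPM in WT libraries. The Vwf means were 12 ± 5.54, 7.82 ± 3.1, 7.48 ± 2.18 and 17.2 ± 4.94 CPM in the same order of groups. Every WT library lay above every 5xFAD and every Ulk1OV library, and its interaction was 1.83 ± 0.52 (adjusted p = 0.0359). Pltp, a phospholipid transfer protein, stood at 49.1, 46.6 and 74.4 CPM in 5xFAD;Ulk1OV libraries, 23.8, 45.6 and 36.8 CPM in 5xFAD libraries, 46.9, 43.5 and 44.2 CPM in Ulk1OV libraries and 52.8, 44.1 and 67.6 CPM in WT libraries. Pltp averaged 56.7 ± 15.4, 35.4 ± 11, 44.9 ± 1.75 and 54.8 ± 11.9 CPM in the same order of groups. The 5xFAD libraries were below the 5xFAD;Ulk1OV ones, with a log2 fold change of 0.68 ± 0.22 that was not called (adjusted p = 0.154).

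Bsg averaged 430 ± 21.4 CPM in 5xFAD;Ulk1OV, 371 ± 10.2 CPM in 5xFAD, 427 ± 3.36 CPM in Ulk1OV and 450 ± 50.1 CPM in WT libraries. Nos3, the endothelial nitric oxide synthase, averaged 2.81 ± 0.755, 1.73 ± 0.614, 2.38 ± 0.504 and 3.54 ± 1.46 CPM in 5xFAD;Ulk1OV, 5xFAD, Ulk1OV and WT libraries, and 32.3% of its exon bases overlap another gene. Pglyrp1, a peptidoglycan recognition protein, averaged 1.62 ± 0.850, 1.16 ± 0.457, 2.13 ± 0.227 and 1.76 ± 0.976 CPM in that order. The surface proteins Ly6c1 (9.87 ± 2.45, 9.43 ± 2.87, 11.8 ± 1.94 and 9.75 ± 0.974 CPM) and Ly6a (5.93 ± 0.894, 5.64 ± 1.54, 4.38 ± 0.271 and 6.17 ± 0.714 CPM) are paralogs. Whether reads were misassigned among genes of their family was not tested.

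**Figure D4:**
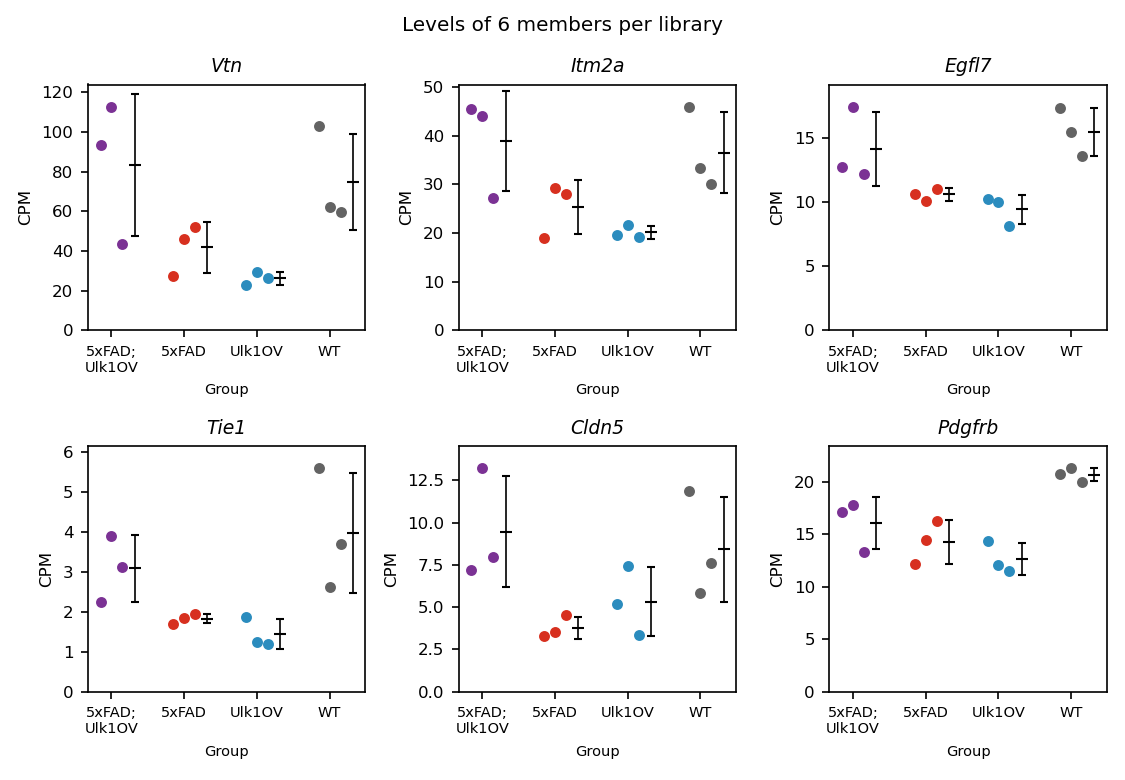
Each point is a library's level in CPM for Vtn, Itm2a, Egfl7, Tie1, Cldn5 and Pdgfrb in 5xFAD;Ulk1OV, 5xFAD, Ulk1OV and WT, with bars for the mean and SD of 3 libraries. For Pdgfrb the WT libraries, at 20.0 to 21.3 CPM, lie above all others.

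Pericyte members were divided. Vtn, the matrix protein vitronectin that brain pericytes make, was at 93.6, 113 and 43.4 CPM in 5xFAD;Ulk1OV libraries, 27.3, 45.9 and 52.2 CPM in 5xFAD libraries, 23.0, 29.6 and 26.2 CPM in Ulk1OV libraries and 103, 62.1 and 59.6 CPM in WT libraries. Vtn averaged 83.2 ± 35.8, 41.8 ± 12.9, 26.2 ± 3.3 and 74.8 ± 24.2 CPM in the same order of groups. The Ulk1OV libraries lay below all 5xFAD;Ulk1OV and WT libraries, and the library labelled 5xFAD;Ulk1OV replicate 3 was the lowest of its group. Vtn fell in Ulk1OV against WT by 1.51 ± 0.32 on the log2 scale (adjusted p = 0.0287), rose in 5xFAD;Ulk1OV against Ulk1OV by 1.67 ± 0.32 (adjusted p = 0.018), and had an interaction of 2.5 ± 0.45 (adjusted p = 0.00725). Its log2 fold change was -0.84 ± 0.31 in 5xFAD against WT (adjusted p = 0.314) and 0.99 ± 0.31 in 5xFAD;Ulk1OV against 5xFAD (adjusted p = 0.14).

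Pdgfrb, the receptor that holds pericytes to the endothelium, stood at 17.2, 17.9 and 13.3 CPM in 5xFAD;Ulk1OV libraries, 12.2, 14.4 and 16.3 CPM in 5xFAD libraries, 14.4, 12 and 11.6 CPM in Ulk1OV libraries and 20.8, 21.3 and 20.0 CPM in WT libraries. Pdgfrb averaged 16.1 ± 2.45, 14.3 ± 2.09, 12.6 ± 1.5 and 20.7 ± 0.646 CPM in the same order of groups. All WT libraries were above all 9 others. Pdgfrb fell in Ulk1OV against WT by 0.71 ± 0.15 on the log2 scale (adjusted p = 0.0271), with -0.53 ± 0.14 in 5xFAD against WT (adjusted p = 0.236), 0.35 ± 0.15 in 5xFAD;Ulk1OV against Ulk1OV (adjusted p = 0.157) and an interaction of 0.88 ± 0.21 (adjusted p = 0.0166).

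The other 6 pericyte members were not called in any comparison. Rgs5, a regulator of G protein signalling, averaged 42.8 ± 9.65 CPM in 5xFAD;Ulk1OV, 45.2 ± 10.9 CPM in 5xFAD, 47.8 ± 3.95 CPM in Ulk1OV and 45.4 ± 4.95 CPM in WT libraries. Kcnj8 and Abcc9 encode the channel pore and the sulfonylurea receptor of the pericyte ATP-sensitive potassium channel. Kcnj8 was at 2.46, 2.45 and 2.34 CPM in 5xFAD;Ulk1OV libraries, 4.24, 2.70 and 2.48 CPM in 5xFAD libraries, 2.62, 2.36 and 1.91 CPM in Ulk1OV libraries and 3.0, 2.78 and 3.52 CPM in WT libraries, with a log2 fold change of -0.38 ± 0.25 in 5xFAD;Ulk1OV against 5xFAD (adjusted p = 0.465), or -0.086 without 5xFAD replicate 1. Kcnj8 averaged 2.42 ± 0.0677, 3.14 ± 0.96, 2.3 ± 0.361 and 3.1 ± 0.379 CPM in the same order of groups. Abcc9 averaged 2.16 ± 0.262, 2.85 ± 0.203, 3.16 ± 0.913 and 2.64 ± 0.711 CPM in 5xFAD;Ulk1OV, 5xFAD, Ulk1OV and WT libraries. In that order, Notch3, the Notch receptor of mural cells, averaged 4.43 ± 0.316, 4.28 ± 0.959, 3.66 ± 1.19 and 5.56 ± 1.1 CPM. Atp13a5 averaged 4.87 ± 0.855, 5.80 ± 0.182, 4.49 ± 0.281 and 5.81 ± 0.673 CPM, and Higd1b 1.26 ± 0.461, 1.02 ± 0.183, 0.680 ± 0.391 and 1.0 ± 0.362 CPM.

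Contractile genes were low and variable. Myh11 (chr16:14194535-14291372), the smooth muscle myosin heavy chain, was at 3.30, 4.96 and 1.67 CPM in 5xFAD;Ulk1OV libraries, 1.41, 2.86 and 2.21 CPM in 5xFAD libraries, 1.12, 1.36 and 1.74 CPM in Ulk1OV libraries and 4.64, 2.23 and 3.46 CPM in WT libraries. Myh11 averaged 3.31 ± 1.64, 2.16 ± 0.726, 1.41 ± 0.313 and 3.45 ± 1.2 CPM in the same order of groups. All Ulk1OV libraries lay below all WT libraries, and the library labelled 5xFAD;Ulk1OV replicate 3 lay within the Ulk1OV range. Its log2 fold change was -1.28 ± 0.41 in Ulk1OV against WT (adjusted p = 0.0805) and 1.22 ± 0.41 in 5xFAD;Ulk1OV against Ulk1OV (adjusted p = 0.0856), with -0.67 ± 0.40 in 5xFAD against WT (adjusted p = 0.514) and 0.61 ± 0.40 in 5xFAD;Ulk1OV against 5xFAD (adjusted p = 0.448), the last of which was 0.2 without 5xFAD;Ulk1OV replicate 2. The interaction was 1.89 ± 0.57 (adjusted p = 0.0454).

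Acta2, smooth muscle actin, averaged 12.6 ± 4.08 CPM in 5xFAD;Ulk1OV, 12.3 ± 9.40 CPM in 5xFAD, 7.94 ± 2.93 CPM in Ulk1OV and 13 ± 2.93 CPM in WT libraries. Cnn1, calponin, averaged 0.639 ± 0.468, 0.687 ± 0.448, 0.176 ± 0.0119 and 0.571 ± 0.218 CPM in 5xFAD;Ulk1OV, 5xFAD, Ulk1OV and WT libraries, from 2 to 18 counts per library. The Ulk1OV libraries of both lay below all WT libraries, and neither was called. Tagln averaged 0.183 ± 0.0265, 0.168 ± 0.195, 0.124 ± 0.166 and 0.205 ± 0.127 CPM in that order of groups.

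Of lists of other vascular genes, few members were called in Ulk1OV against WT, where 3.04% of all genes fell and 5.17% changed in either direction. Mgp, a matrix protein that inhibits calcification, was the 1 of 9 arterial genes that fell, by 2.15 ± 0.50 on the log2 scale (adjusted p = 0.0331). Lamb2, a laminin chain, was the 1 of 12 basement membrane genes, at -0.56 ± 0.14 (adjusted p = 0.0402), and Lmod1, a smooth muscle actin nucleator, and Slc6a20a, an amino acid transporter, were the 2 of 16 other mural genes tested, at -1.52 ± 0.30 (adjusted p = 0.0255) and -2.16 ± 0.43 (adjusted p = 0.0251). None of 20 vascular ligands, 16 capillary, 8 venous, 12 tight and adherens junction or 10 Notch genes tested was called. The medians were -0.621 for arterial, -0.519 for other mural, -0.495 for basement membrane, -0.436 for ligand, -0.273 for venous, -0.248 for capillary, -0.097 for junction and -0.009 for Notch genes. In the interaction, 5 of 16 other mural genes, 2 of 20 ligands, 2 of 9 arterial, 2 of 12 basement membrane and 1 of 8 venous genes were called and positive. Over all genes the share was 6.8%, and 12.8% in either direction, so the ligand and venous counts were not far from it. Among the genes called was Angpt2, the TEK ligand of remodelling vessels, at 2.10 ± 0.61 (adjusted p = 0.0382). Of 10 Notch genes, Rbpj, the nuclear effector of the pathway, was called and negative, at -0.70 ± 0.18 (adjusted p = 0.0227).

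Markers of other cells at the vessel and brain border moved with these results. Of 13 markers of meningeal and perivascular fibroblasts, none at 0 in any library, 9 fell in Ulk1OV against WT (median -1.515), 7 rose in 5xFAD;Ulk1OV against Ulk1OV (median 1.522) and 9 were called and positive in the interaction (median 2.358). Over all genes the shares were 3.04%, 3.67% and 6.8% in that order. No fibroblast marker was called in 5xFAD against WT (median -0.897) or 5xFAD;Ulk1OV against 5xFAD (median 0.949). Of all genes, 0.0% and 0.0464% were called there. At an unadjusted p under 0.05 (edgeR), 9 of 13 markers were lower in 5xFAD against WT and 0 higher, with 6.41% of all genes lower. In 5xFAD;Ulk1OV against 5xFAD, 8 were higher and 1 lower, with 8.36% of all genes higher. These markers are followed here per library. They summed to 306.3 to 634.4 CPM in 5xFAD;Ulk1OV libraries, 250.3 to 408.9 CPM in 5xFAD libraries, 268.8 to 288.4 CPM in Ulk1OV libraries and 455.6 to 629.2 CPM in WT libraries, with the lowest 5xFAD;Ulk1OV value in the library labelled replicate 3. Col3a1, a fibrillar collagen, was at -2.56 ± 0.57 on the log2 scale in Ulk1OV against WT (adjusted p = 0.0299). Border macrophage and leukocyte markers summed to 23.6 to 62.9 CPM in 5xFAD;Ulk1OV, 24.5 to 39.7 CPM in 5xFAD, 19.8 to 32.9 CPM in Ulk1OV and 38.5 to 80 CPM in WT libraries, with 0 of 10 called in Ulk1OV against WT, and Ms4a7 was at 0 in at least 1 library. Red cell markers summed to 100.1 to 161.1 CPM in 5xFAD;Ulk1OV, 52 to 130.6 CPM in 5xFAD, 54.5 to 136 CPM in Ulk1OV and 94.8 to 208.5 CPM in WT libraries, and 1 of 5 fell in Ulk1OV against WT. In that comparison 1 of 8 astrocyte markers rose, and no choroid plexus (10), microglia (9), oligodendrocyte lineage (9), neuron (8) or ependymal (5) marker was called, against 5.17% of all genes. The part of these cells in the changes of the vessel genes was not tested.

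**Figure D5:**
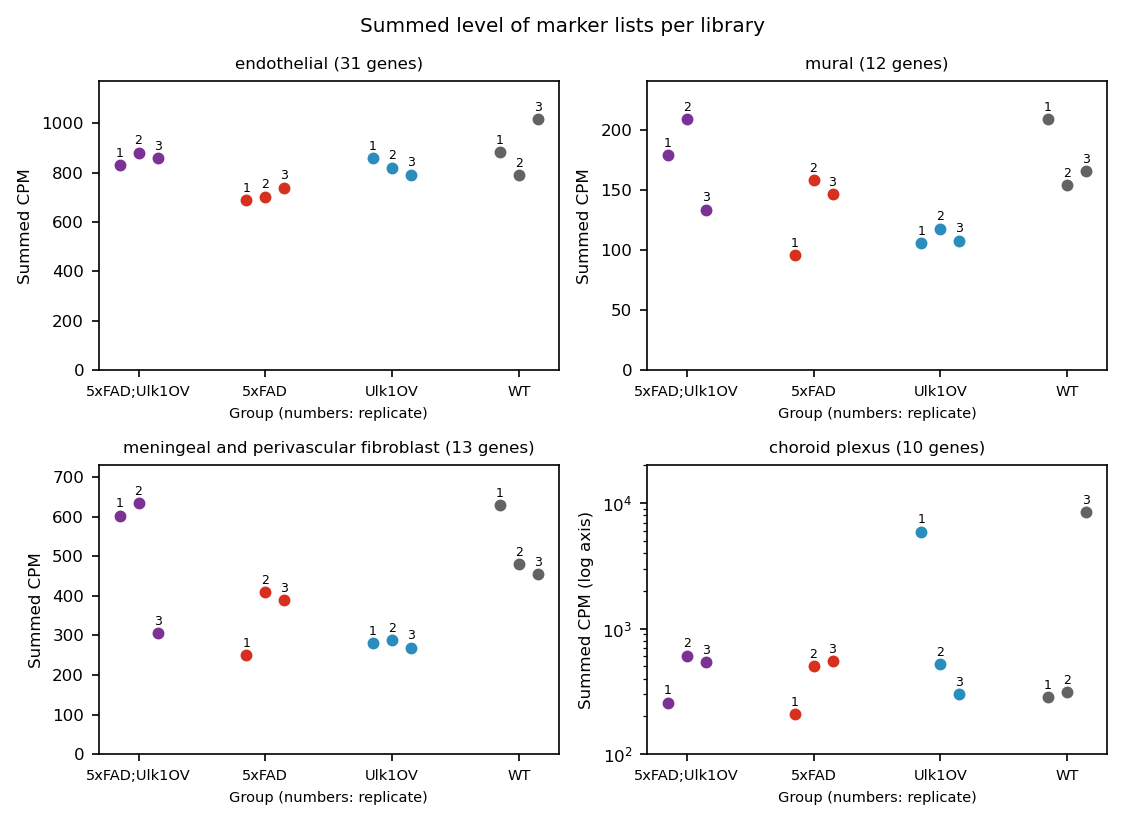
Each point is a library's summed level in CPM for a marker list, in 5xFAD;Ulk1OV, 5xFAD, Ulk1OV and WT, with the choroid plexus list on a log axis. The fibroblast sum is 268.8 to 288.4 CPM in the Ulk1OV libraries and 455.6 to 629.2 CPM in the WT libraries.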

How the data were processed

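Hippocampal RNA was sequenced by the authors in 12 libraries, and the deposited table holds raw read counts per gene. The submitters' processing notes name FastQC, Trim Galore, HISAT2, SAMtools, featureCounts, DESeq2 and build mm10; no source used here gives their settings, annotation or strand. Genes were tested with edgeR 4.0.16 (R 4.3.3): filterByExpr left 17227 of 54427 genes, TMM scaling, 1 mean per group over all 12 libraries, and glmQLFit with glmQLFTest. Adjusted p-values are Benjamini-Hochberg over all genes tested, called under 0.05. SE is the log2 fold change over the root of F. Levels are CPM over TMM-scaled totals. DESeq2 1.42.0 was an alternative, with other scaling, no filter, a replicate block, only the 6 libraries compared, and libraries left out. The members and lists were chosen with earlier results of these data known. Every member is named with its mean; values per library and tests are given for members called in any comparison and for the 3 endothelial and 3 mural members of smallest p in each comparison. Positions and overlaps come from GENCODE M21 (GRCm38). Replicate libraries varied beyond counting noise, so none was merged. With 3 against 3 libraries an exact permutation test cannot go below 0.1, so none was used.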

Additional observations from a re-analysis of the deposited data

Results flagged for a closer look

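For 11 members the effect of Ulk1OV differed between groups labelled with and without the FAD gene, by edgeR's interaction test across all genes. The library labelled 5xFAD;Ulk1OV replicate 3, which goes against its label, is included here under that label. The differences in log2 fold change were 1.99 for Cldn5, 1.48 for Itm2a, 1.55 for Cdh5, 1.35 for Tek, 2.21 for Tie1, 1.14 for Esam, 1.83 for Vwf and 1.13 for Egfl7 among endothelial genes. Among mural genes they were 0.88 for Pdgfrb, 2.5 for Vtn and 1.89 for Myh11. Of these, 6 (Cldn5, Itm2a, Tek, Tie1, Egfl7 and Vtn) were called under each of the 17 alternatives run for them. The calls of the other 5 were lost with some single libraries left out: Pdgfrb stayed called in 10 of 12 such fits, Vwf in 5, Cdh5 and Esam in 4 each and Myh11 in 2. Without 5xFAD;Ulk1OV replicate 2, the adjusted p (edgeR) was 0.0506 for Pdgfrb, 0.102 for Vwf, 0.134 for Cdh5, 0.109 for Esam and 0.129 for Myh11, and all 5 differences stayed positive.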

How the results depend on the processing

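No value changed sign among those that were called, under any alternative run. Of the alternatives for named members, 554 gave the same call, 23 gained one and 96 lost one. The 554 include members that were not called in the main fit and stayed so. Of the members called, 0 of 7 in Ulk1OV against WT kept their call in every alternative. The same held for 0 of 3 in 5xFAD;Ulk1OV against Ulk1OV and 6 of 11 in the interaction. With 1 library left out at a time, the counts over all genes were 0 to 39 in 5xFAD against WT, 0 to 260 in 5xFAD;Ulk1OV against 5xFAD, 0 to 1294 in Ulk1OV against WT, 0 to 1629 in 5xFAD;Ulk1OV against Ulk1OV and 974 to 2596 in the interaction. Endothelial calls were 0 to 8 in Ulk1OV against WT, 0 to 4 in 5xFAD;Ulk1OV against Ulk1OV and 5 to 10 in the interaction; mural calls were 0 to 3, 0 to 2 and 1 to 3. Endothelial medians were -0.582 to -0.294 in 5xFAD against WT, 0.189 to 0.375 in 5xFAD;Ulk1OV against 5xFAD, -0.454 to -0.209 in Ulk1OV against WT, 0.063 to 0.319 in 5xFAD;Ulk1OV against Ulk1OV and 0.467 to 0.818 in the interaction. Mural medians in that order were -0.171 to 0.012, -0.086 to 0.177, -0.727 to -0.516, 0.288 to 0.485 and 0.544 to 0.874, so the first and second crossed 0. Among values that were not called, Vtn and Myh11 in 5xFAD against WT were -0.542 and -0.395 without WT replicate 1, and Pltp in 5xFAD;Ulk1OV against 5xFAD was 0.45 without the library labelled 5xFAD;Ulk1OV replicate 3. Without a filter on low counts, the counts over all genes were 551, 901, 2079 and 2097 in the 4 pairwise comparisons in that order, with 8, 4, 9 and 8 endothelial and 1, 1, 4 and 3 mural calls. DESeq2 called 136, 713, 1843 and 1994 genes, with 0, 2, 8 and 4 endothelial and 0, 0, 3 and 2 mural calls. With only the 6 libraries compared, 2 genes were called in 5xFAD against WT, 0 in 5xFAD;Ulk1OV against 5xFAD and 430 in 5xFAD;Ulk1OV against Ulk1OV, with 1 endothelial call. DESeq2 size factors gave 18 genes in 5xFAD;Ulk1OV against 5xFAD. Leaving out the library labelled 5xFAD;Ulk1OV replicate 3 with WT replicate 3, chosen after seeing the data, gave 2 genes and an endothelial median of -0.303 in 5xFAD against WT. The same fit gave 5 endothelial and 2 mural calls among 1541 genes called in 5xFAD;Ulk1OV against Ulk1OV. Same-numbered libraries of different groups correlated at -0.183 to 0.216, and differently numbered ones at -0.205 to 0.222. No pairing by number was seen, but with 3 libraries in each group this check cannot exclude it. With the number as a replicate block, 0 genes were called in 5xFAD;Ulk1OV against 5xFAD. The block left 4 endothelial members among 1033 genes called in Ulk1OV against WT, and 7 among 2259 in the interaction. The block ended the call of Tek in Ulk1OV against WT and of Cdh5, Vwf and Myh11 in the interaction. The cause of these differences was not tested. By their highest count in any library, Tagln (7), Cnn1 (18), Erg (29) and Higd1b (32) are the members most limited by depth.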
